A study of Mus musculus with 9 samples.

Results

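Neb, the gene of the giant muscle protein nebulin, and 8 genes related to it by family or by place in the muscle fibre were followed across ILC2s, the group 2 innate lymphoid cells that live in tissues and make type 2 cytokines. The 9 genes were Neb, Nebl, Nrap and Lasp1 of the nebulin family, and Ttn, Acta1, Myh4, Ckm and Des of the sarcomere and the muscle fibre. They were found by symbol in the deposited count table, where 8 of the 9 had a row among 23466 genes; Myh4, a fast skeletal myosin heavy chain, had none and has no value here. Neb was chosen by its measured values in injured against uninjured meninges, and the others were joined to it by family or place. The injury values of all members are therefore a description without a test. The cells came from wild type C57/Bl6 mice, 10 weeks old, and were sorted as live CD45+ lineage-negative cells with St2 and Thy1. There were 3 libraries each of injured meninges, uninjured meninges and uninjured lung, and the meninges of both groups were those of the brain. Injury was a contusion of the spinal cord at 80 kdyn, made 24 h earlier, so the tissue sampled was not that of the injured site. The labels name no sham operation, and 5 mice were pooled per group without a statement on whether each library had its own pool, so the spread between libraries may be technical.

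In skeletal muscle, nebulin runs along the actin thin filament and titin spans the sarcomere from the Z-disc to the middle, while myosin, creatine kinase and desmin serve force, energy supply and mechanical linkage. Nebulin is built almost wholly of short repeats that each bind actin, and loss of nebulin causes nemaline myopathy in humans. Its smaller relatives are nebulette (Nebl, whose gene also gives the non-muscle protein Lasp2), the nebulin-related anchoring protein (Nrap) of forming myofibrils, and Lasp1, an adaptor of the actin cytoskeleton found in many cells outside muscle.

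The repeat that defines the family can be seen in the coding sequence. The Neb transcript of GENCODE M21 read here has 7152 codons, and 79 places in its reading frame encode the actin-binding motif serine, aspartate, any 2 residues, tyrosine, lysine. The same search took only this exact motif, so 0 matches would not mean that a gene lacks the repeat. It found 4 places in Nebl, 6 in Nrap and 0 in Lasp1. The first such repeat of each gene is shown because it is what relates the members, with 105 bases written from the motif onward and the 18 bases of the motif in capitals; Neb and Nebl lie on chromosome 2 and Nrap on chromosome 19.
Neb: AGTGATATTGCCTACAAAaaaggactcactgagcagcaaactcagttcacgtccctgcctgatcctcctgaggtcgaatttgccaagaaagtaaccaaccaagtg
Nebl: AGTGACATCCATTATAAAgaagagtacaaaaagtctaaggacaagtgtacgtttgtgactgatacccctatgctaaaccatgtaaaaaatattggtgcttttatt
Nrap: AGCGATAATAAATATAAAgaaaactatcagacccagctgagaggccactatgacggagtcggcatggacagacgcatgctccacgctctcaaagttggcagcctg
These stretches were alike at 46.7% of bases between Neb and Nebl and at 27.6% between Neb and Nrap, without gaps. Both shares include the 18 bases of the motif by which the stretches were found, so they do not measure likeness outside it. Over the whole transcript, 0.0267% of the 50-base words of Neb also stood in a transcript of another gene, so few reads of that length could belong to another gene. Within the Neb transcript, 4.36% of such words occurred more than once, and reads from those repeats may have been dropped or kept by the authors' counting, which the sources used here do not state.

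Libraries held 13407277 to 18253462 counts. Levels are given as CPM, counts scaled to a common library size by edgeR's trimmed mean of M values. A gene at 0 counts could still have had up to 3 counts, or 0.163 to 0.239 CPM depending on the library, by counting error alone. Il1rl1, which encodes the St2 of the gate, lay between 1852 and 2694 CPM over all 9 libraries. Thy1, also part of the gate, had 92.5, 60.1 and 51.4 CPM in injured and 279, 167 and 229 CPM in uninjured meninges. Of 8 listed genes of the gate and ILC2 identity, 6 had a positive log2 difference with injury and 2 a negative one. Rora, a transcription factor that ILC2s need, had 758, 1001 and 1240 CPM in injured meninges, 478, 474 and 507 CPM in uninjured meninges and 738, 948 and 1168 CPM in lung. Its edgeR adjusted p was 0.075 with injury and 0.053 between uninjured meninges and lung, just above the threshold. DESeq2 called it in both (adjusted p = 0.0081 and 0.0094), where it called 2.86% and 3.52% of all genes. Of 14 edgeR alternatives, 3 called Rora with injury and 8 between uninjured meninges and lung. Injured meninges 2 stood apart, with Spearman correlations across genes of 0.815 and 0.819 to injured meninges 1 and 3, where other pairs of a group had 0.856 to 0.879, and had the fewest detected genes, 13465.

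Neb was several times higher in ILC2s of injured meninges than in those of uninjured meninges, and lowest in lung. It had 783, 1039.9 and 1175 CPM in the 3 injured meningeal libraries, 57.5, 121 and 147 CPM in the uninjured meningeal libraries, and 29.3, 51.8 and 56.8 CPM in the lung libraries. All injured libraries lay above all others, and the uninjured meningeal libraries lay above the lung libraries, the closest pair being 57.5 and 56.8 CPM. The counts behind these levels were 13115, 13073 and 18746 in injured meninges, 1057, 1872 and 2182 in uninjured meninges and 477, 703 and 886 in lung. The mean of Neb was 999 ± 199 CPM in injured meninges, 108 ± 45.8 CPM in uninjured meninges and 45.9 ± 14.6 CPM in the lung libraries (SD over 3 libraries). The fitted log2 difference was 3.21 ± 0.34 (SE) between injured and uninjured meninges, a 9.23-fold higher level. Without injured meninges 2 it was 3.18. It was 1.24 ± 0.32 between uninjured meninges and lung and 4.44 ± 0.36 between injured meninges and lung. These 3 differences share libraries with the values for which Neb was chosen and carry no test. By CPM, without scaling by length, Neb ranked between 35 and 55 among all genes in the injured meningeal libraries, between 1129 and 2673 in the uninjured ones and between 2898 and 4704 in lung. In these bulk samples, more cells with a transcript and more transcript per cell cannot be told apart.

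**Figure D1:**
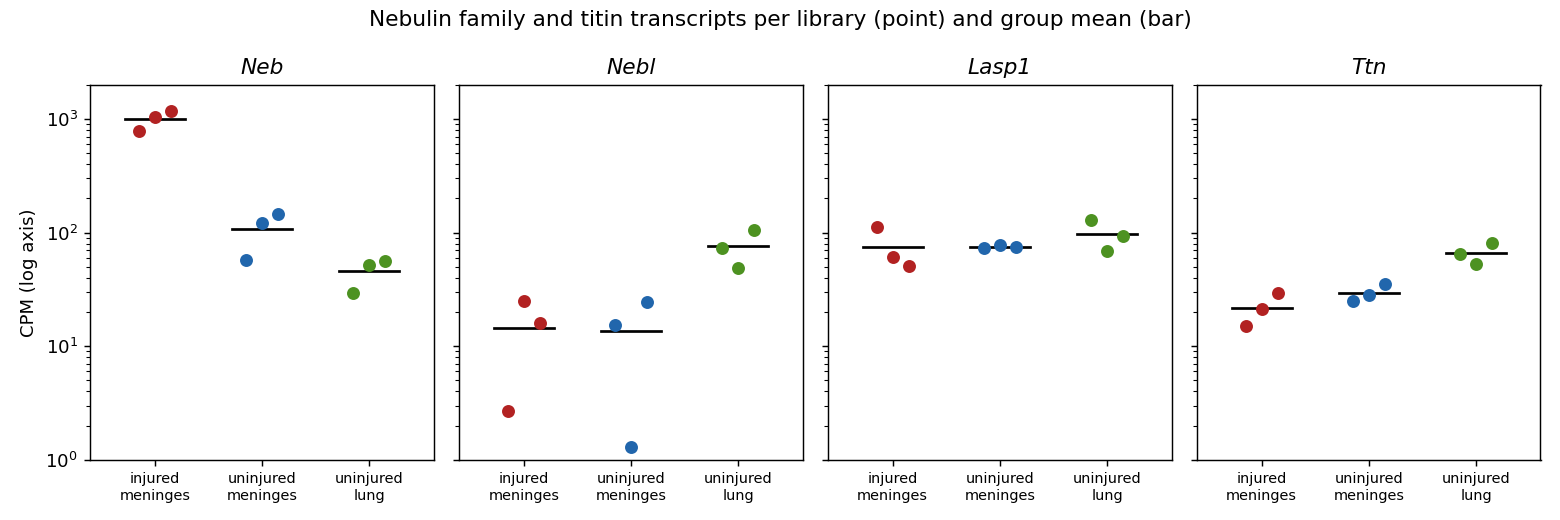
Levels of Neb, Nebl, Lasp1 and Ttn in CPM on a log axis, with 1 point per library and a bar at the mean of the 3 libraries of injured meninges, uninjured meninges and uninjured lung. The injured meningeal points of Neb (783 to 1175 CPM) lie above all its other points, while Nebl and Ttn are highest in lung.

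None of Neb's relatives followed its order over the groups. Nebl had 2.69, 24.98 and 15.9 CPM in injured meninges, 15.2, 1.29 and 24.7 CPM in uninjured meninges and 73.7, 49.3 and 104.9 CPM in lung. Each meningeal group spanned a wide range, both overlapped, and all lung libraries lay above them. The log2 difference of Nebl was 0.08 ± 0.82 (SE) between injured and uninjured meninges, an interval that leaves room for a change of either sign. Lasp1 had 113, 60.7 and 50.8 CPM in injured meninges, 73.5, 78.2 and 75.0 CPM in uninjured meninges and 129, 69.2 and 94.3 CPM in lung. The 3 groups of Lasp1 overlapped, the uninjured meningeal libraries being closest together, and the log2 difference with injury was -0.01 ± 0.36. Nrap was close to undetected, with counts of 6, 0 and 0 in injured meninges, 0, 0 and 18 in uninjured meninges and 0 in every lung library. Of the 8 members with a row, 1, Neb itself, had injured and uninjured meninges without overlap. Among the 15117 genes tested 12.1% had such groups, and nothing is read from the member count because Neb was chosen for it.

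Ttn, the gene of titin, had the opposite order to Neb. It had 15.1, 21.4 and 29.1 CPM in injured meninges, 24.8, 28.2 and 35.1 CPM in uninjured meninges and 64.8, 53.5 and 81.5 CPM in lung. Injured and uninjured meninges overlapped, and both lay below lung in every library. The log2 difference of Ttn was -0.42 ± 0.43 (SE) between injured and uninjured meninges.

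Between uninjured meninges and uninjured lung the members other than Neb could be tested, and edgeR called 0 of the 4 that passed the filter on low counts, against 0.635% of all genes tested. Nebl was lower in meninges by a log2 difference of -2.47 ± 0.86 (SE, edgeR adjusted p = 0.34) and Ttn by -1.18 ± 0.44 (adjusted p = 0.40). For both, the unadjusted p was under 0.05, at 0.012 and 0.016, and every meningeal library lay below every lung library. DESeq2, which called 3.52% of the genes it gave an adjusted p, called 1 of the 4, Ttn (log2 difference -1.21 ± 0.36, adjusted p = 0.023). Lasp1 differed by -0.37 ± 0.36 (edgeR adjusted p = 0.95). Counting Neb, 3 of the 8 members had groups of meninges and lung without overlap, where 18.2% of all tested genes did. Nothing is read from this count. Neb was chosen by values that share the uninjured meningeal libraries, and Nrap, Acta1 and Ckm did not pass the filter.

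Levels of different genes can be compared only per length, since long transcripts give more fragments. Per kilobase of merged GENCODE M21 exons, Neb averaged 37.6 ± 7.48 CPM in injured meninges, 4.07 ± 1.72 in uninjured meninges and 1.73 ± 0.55 in lung (SD, n = 3 each). Lasp1 averaged 11.5 ± 5.16, 11.6 ± 0.37 and 15.002 ± 4.60 CPM per kilobase in the same groups, and Nebl 0.95 ± 0.74, 0.90 ± 0.77 and 4.99 ± 1.83. Of these 4 genes Ttn had the lowest group means, at 0.19 ± 0.060, 0.25 ± 0.045 and 0.57 ± 0.12. The leading family member per length was thus Neb in injured meninges and Lasp1 in the other groups. Within single libraries, Neb stood at 1.69, 4.19 and 5.65 times the length-scaled level of Lasp1 in injured meninges, at 0.19, 0.38 and 0.48 times in uninjured meninges and at 0.056, 0.18 and 0.15 times in lung. Against Ttn the ratio was 228, 214 and 177 in injured meninges, 10.2, 18.8 and 18.3 in uninjured meninges and 1.99, 4.26 and 3.06 in lung. By length-scaled level Neb ranked between 553 and 967 among all genes in injured meninges, a lower place than by counts, with 26.6 kilobases of exons. Counts per gene do not show which Neb transcript, full-length or short, the reads came from. Nor do they show how evenly reads covered these genes in the amplified libraries. The ratios between genes therefore depend on the merged exon length used.

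**Figure D2:**
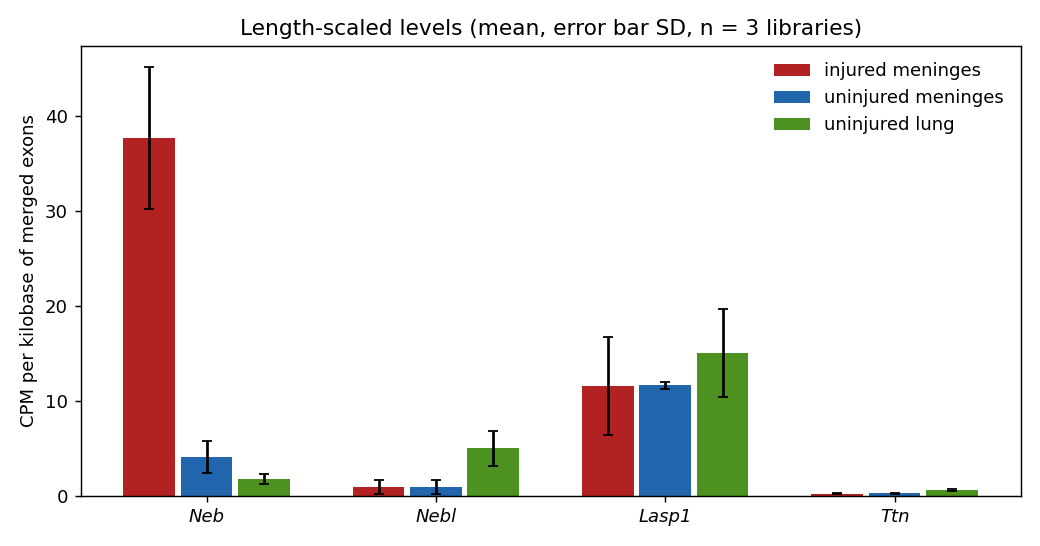
Mean CPM per kilobase of merged exons for Neb, Nebl, Lasp1 and Ttn in injured meninges, uninjured meninges and uninjured lung, with error bars of 1 SD over 3 libraries. Neb is the highest bar in injured meninges (37.6), and Lasp1 the highest in uninjured meninges (11.6) and lung (15.002).

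The abundant genes of the skeletal muscle fibre were at or near 0. Acta1, the actin of skeletal muscle, had 1, 0 and 0 counts in injured meninges, 0, 0 and 2 in uninjured meninges and 0 in all lung libraries. Ckm, the muscle creatine kinase, had 0, 0 and 6 counts in injured meninges, 8, 0 and 0 in uninjured meninges and 0, 0 and 6 in lung. Des, the gene of desmin, had 0, 0 and 1 counts in injured meninges, 44, 0 and 0 in uninjured meninges and 17, 5 and 47 in lung, so most of its meningeal counts came from uninjured meninges 1. Set against 13115, 13073 and 18746 counts of Neb in the injured libraries, these 3 genes together gave at most 7 counts in any of them. Such counts are not scaled by length. Per kilobase of exons, Acta1, Ckm and Des averaged 0.013, 0.043 and 0.0056 CPM in injured meninges, against 37.6 CPM for Neb. Acta1, Ckm and Nrap did not pass the filter on low counts and were not tested.

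Other genes of the fibre, 52 outside the members in 4 lists, were low: 7 of them exceeded 10 CPM in at least 1 library, the highest being Tpm2 at 25.1 CPM, and 0 did so in all 9 libraries. In all, 28 of them had a row, 11 passed the filter and 0 were called in either comparison by edgeR or DESeq2; 1 had an unadjusted p under 0.05 in each comparison. Over all genes tested, 8.94% had such a p with injury and 7.98% between uninjured meninges and lung. In the same comparisons edgeR called 0.192% and 0.635% of all genes, and DESeq2 2.86% and 3.52%. The log2 differences of the 11 fibre genes with injury were positive for 5 and negative for 6, with a median of -0.08 against 0.00 over all genes tested. Tnnt3, a fast troponin, had 0.06, 0 and 0 CPM in injured and 0.49, 0.58 and 2.55 CPM in uninjured meninges (edgeR adjusted p = 0.51). Casq1, which binds calcium in the sarcoplasmic reticulum, had 1.47, 1.16 and 6.18 CPM in uninjured meninges and 0.061, 0 and 0 CPM in lung (adjusted p = 0.44). Myom1, a protein of the sarcomere's M-band, had 0, 9.86 and 13.2 CPM in injured meninges and 1.52, 0.26 and 0.87 CPM in uninjured meninges (adjusted p = 0.66). Tpm2, a tropomyosin shared with smooth muscle, had 2.03, 0 and 0 CPM in injured and 5.01, 0.32 and 25.1 CPM in uninjured meninges (adjusted p = 0.60). Synm, an intermediate filament gene, had 7.945, 0.080 and 0 CPM in injured and 3.10, 0 and 0 CPM in uninjured meninges (adjusted p = 0.91). Pgam2, the muscle phosphoglycerate mutase, reached 2.75 CPM in injured and 0.27 CPM in uninjured meninges (adjusted p = 0.78). Eno3, the muscle enolase, had 4.90, 19.4 and 8.34 CPM in injured meninges and 8.16, 3.48 and 3.02 CPM in uninjured meninges (adjusted p = 0.83). Some genes that did not pass the filter were highest in injured meninges 1. Mybph had 10.8 CPM there and 0 in every other library, and Atp2a1 had 5.56 CPM there and at most 0.49 CPM elsewhere. Actn3 had 3.23 CPM there and 1.85 CPM in uninjured meninges 1. Others went the other way: Ldb3 and Myh7 were at 0 in all injured libraries and had 3.81 and 2.46 CPM in lung 1.

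Summed over the 31 fibre genes with a row other than Ttn, the members Acta1, Ckm and Des included, the libraries held 34.2 to 43.8 CPM in injured meninges, 21.8 to 53.7 CPM in uninjured meninges and 15.2 to 58.8 CPM in lung. The 3 ranges overlapped. By list, the energy and calcium genes summed to 14.5 to 23.0 CPM in injured meninges and 13.0 to 19.1 CPM in uninjured meninges. In lung they summed to 5.32 to 7.81 CPM, below every meningeal library. The thick filament list, with Ttn, went the other way, at 28.4 to 38.4 CPM in uninjured meninges and 57.9 to 89.1 CPM in lung. The thin filament and Z-disc lists overlapped between the groups. These differences between lists were not tested. These sums are not scaled by length and so are set between groups, not against Neb. Of the 31 genes, 16 to 23 were at 0 in the injured meningeal libraries, 10 to 18 in the uninjured meningeal libraries and 13 to 21 in the lung libraries.

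**Figure D3:**
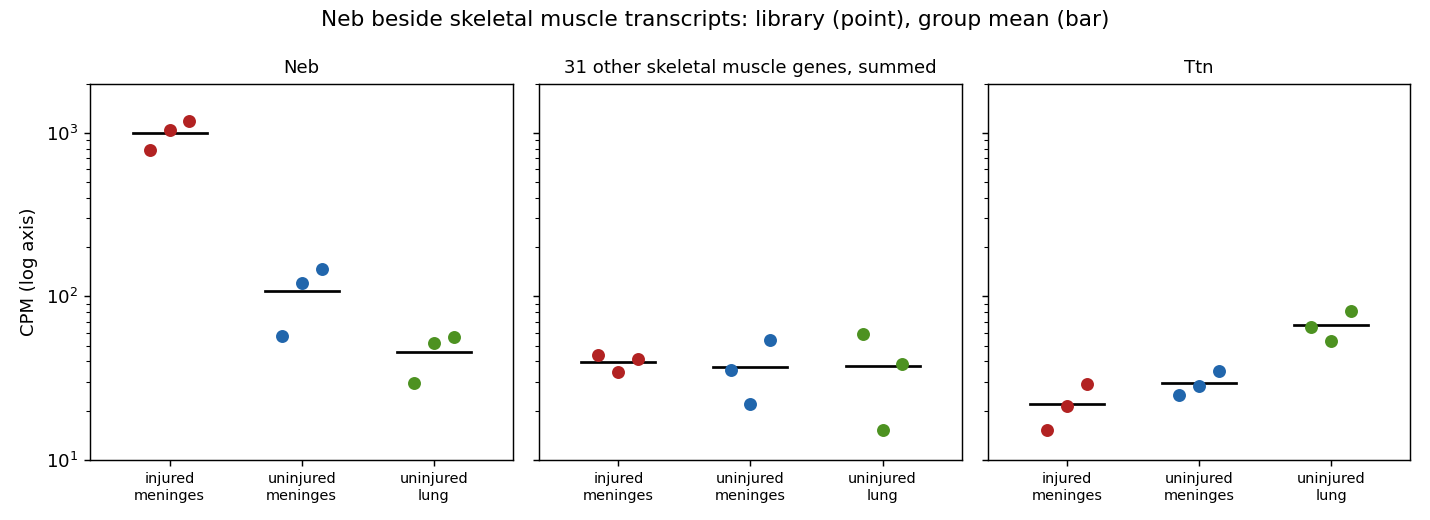
CPM, not scaled by length, on a log axis of Neb, of 31 other skeletal muscle genes summed, and of Ttn, with 1 point per library and a bar at the group mean. Between groups, the summed genes overlap (15.2 to 58.8 CPM over all libraries), while Neb in injured meninges (783 to 1175 CPM) lies above its own other libraries.

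Genes of other muscle types were also looked at. Over all genes tested, edgeR called 0.192% with injury and 0.635% between uninjured meninges and lung, and DESeq2 2.86% and 3.52%. An unadjusted edgeR p under 0.05 was found for 8.94% and 7.98%. Against such shares, 0 calls in a short list say little about its genes. Of 13 genes of smooth muscle and mural cells, which line vessels, 11 were tested and 0 were called by edgeR in either comparison, with 1 and 0 at an unadjusted p under 0.05. With injury the log2 difference was negative for 9 and positive for 2, with a median of -1.25, or -1.05 with Cspg4, which was at 0 in all injured libraries, set at its bound from 3 counts per library. Between uninjured meninges and lung the median was -0.11. Their summed level ranged from 20.8 to 168 CPM in injured meninges, from 31.9 to 195 CPM in uninjured meninges and from 88.3 to 273 CPM in lung, so the groups overlapped. Myh11, the smooth muscle myosin heavy chain, had 7.59, 12.01 and 9.59 CPM in injured and 33.6, 5.03 and 53.1 CPM in uninjured meninges (edgeR adjusted p = 0.59). The part of these genes in the values of Neb was not tested. Mylk, the myosin light chain kinase, had 67.6, 13.2 and 7.46 CPM in injured and 35.9, 0.52 and 22.6 CPM in uninjured meninges (edgeR adjusted p = 0.93). DESeq2 called Pdgfrb, a mural growth factor receptor, with 0.24, 0.080 and 0 CPM in injured and 4.68, 1.35 and 10.2 CPM in uninjured meninges (DESeq2 adjusted p = 0.00018, edgeR adjusted p = 0.32). Of 11 cardiac genes, 3 were tested and 0 were called by edgeR or DESeq2, with 1 at an unadjusted p under 0.05 in each comparison, Actc1. Pln, a regulator of the calcium pump, had 7.83, 0.080 and 2.57 CPM in injured and 9.31, 0.065 and 15.2 CPM in uninjured meninges (edgeR adjusted p = 0.90). Actc1, the cardiac actin, had 27.7, 0 and 0 CPM in injured meninges, 0, 0 and 0.067 CPM in uninjured meninges and 5.71, 0 and 2.88 CPM in lung, so 1 library carried the injured level. Among 11 regulators of myogenesis, 3 were tested, Mef2a, Mef2c and Mef2d, and 0 were called by edgeR or DESeq2 or had an unadjusted p under 0.05. Mef2a, which lymphocytes share with muscle, had 209, 282 and 376 CPM in injured meninges and 269, 265 and 325 CPM in uninjured meninges. Mef2c had 7.41, 56.5 and 4.14 CPM in injured and 23.02, 2.71 and 16.3 CPM in uninjured meninges. Myog, a master factor of muscle differentiation, had 0.20 CPM in uninjured meninges 3, 0.96 CPM in lung 2 and 0 in every other library. Pax3, of the same list, had 0.32 CPM in injured meninges 2 and 0 in every other library.

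Partners of the nebulin family, proteins known in muscle or other cells to bind its members, were followed together with the actin cytoskeleton of non-muscle cells. Of 14 partner genes, 9 were tested and 0 were called by edgeR in either comparison, where 0.192% and 0.635% of all genes were. An unadjusted p under 0.05 was found for 1 and 3 of them, where 8.94% and 7.98% of all genes had one. Wasl, which encodes the actin nucleation factor N-WASP, had 85.1, 57.6 and 109 CPM in injured meninges and 76.0, 76.1 and 103 CPM in uninjured meninges, a log2 difference of -0.02 ± 0.33 (SE). Lpp, which encodes an adaptor of focal adhesions, had 162.4, 162.3 and 161.2 CPM in injured meninges, 206, 243 and 155 CPM in uninjured meninges and 282, 234 and 409 CPM in lung (edgeR adjusted p = 0.78 for injury and 0.49 for meninges against lung). Palld, the gene of the actin-bundling protein palladin, differed most, with 21.3, 0.32 and 16.5 CPM in injured meninges, 1.25, 0 and 0.27 CPM in uninjured meninges and 7.50, 33.9 and 16.6 CPM in lung. With all libraries and the filter it was not called by edgeR (adjusted p = 0.38 for injury and 0.20 for meninges against lung). DESeq2 called it in both (adjusted p = 0.029 and 0.0050), and edgeR called it between meninges and lung without the filter (adjusted p = 0.048) and without injured meninges 2 (adjusted p = 0.032). Injured meninges 2 lay with the uninjured libraries.

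All 16 genes of the non-muscle actin cytoskeleton were tested. With injury their median log2 difference was -0.25 against 0.00 over all genes. By edgeR 0 of them were called, against 0.192% of all genes tested. DESeq2 called 1, against 2.86% of all genes, and 1 had an unadjusted edgeR p under 0.05, against 8.94%. That gene was Myl12b, a regulatory myosin light chain, with 87.5, 58.0 and 74.8 CPM in injured and 144, 131 and 160.2 CPM in uninjured meninges (log2 difference -0.98 ± 0.26, edgeR adjusted p = 0.24, DESeq2 adjusted p = 0.0023). Actb, the main cytoplasmic actin, had 2055, 1946 and 754 CPM in injured and 2195, 1887 and 1665 CPM in uninjured meninges, so the injured libraries were spread. Vim, the gene of the intermediate filament vimentin, was the 1 gene called between uninjured meninges and lung, where 0.635% of all genes were called. It had 111, 82.7 and 74.2 CPM in uninjured meninges and 278, 232 and 283 CPM in lung. Its log2 difference was -1.57 ± 0.27 (edgeR adjusted p = 0.010), and the call was lost without uninjured meninges 2 or 3 or without lung 1 or 3. Over all 64 tested list genes outside the members, edgeR called 1 with injury, Thy1 of the sort gate, which fell by 1.73 on the log2 scale (SE 0.29, adjusted p = 0.022), where 0.192% of all genes were called. That call was lost without uninjured meninges 1 or 3 and without injured meninges 2 or 3.

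**Figure D4:**
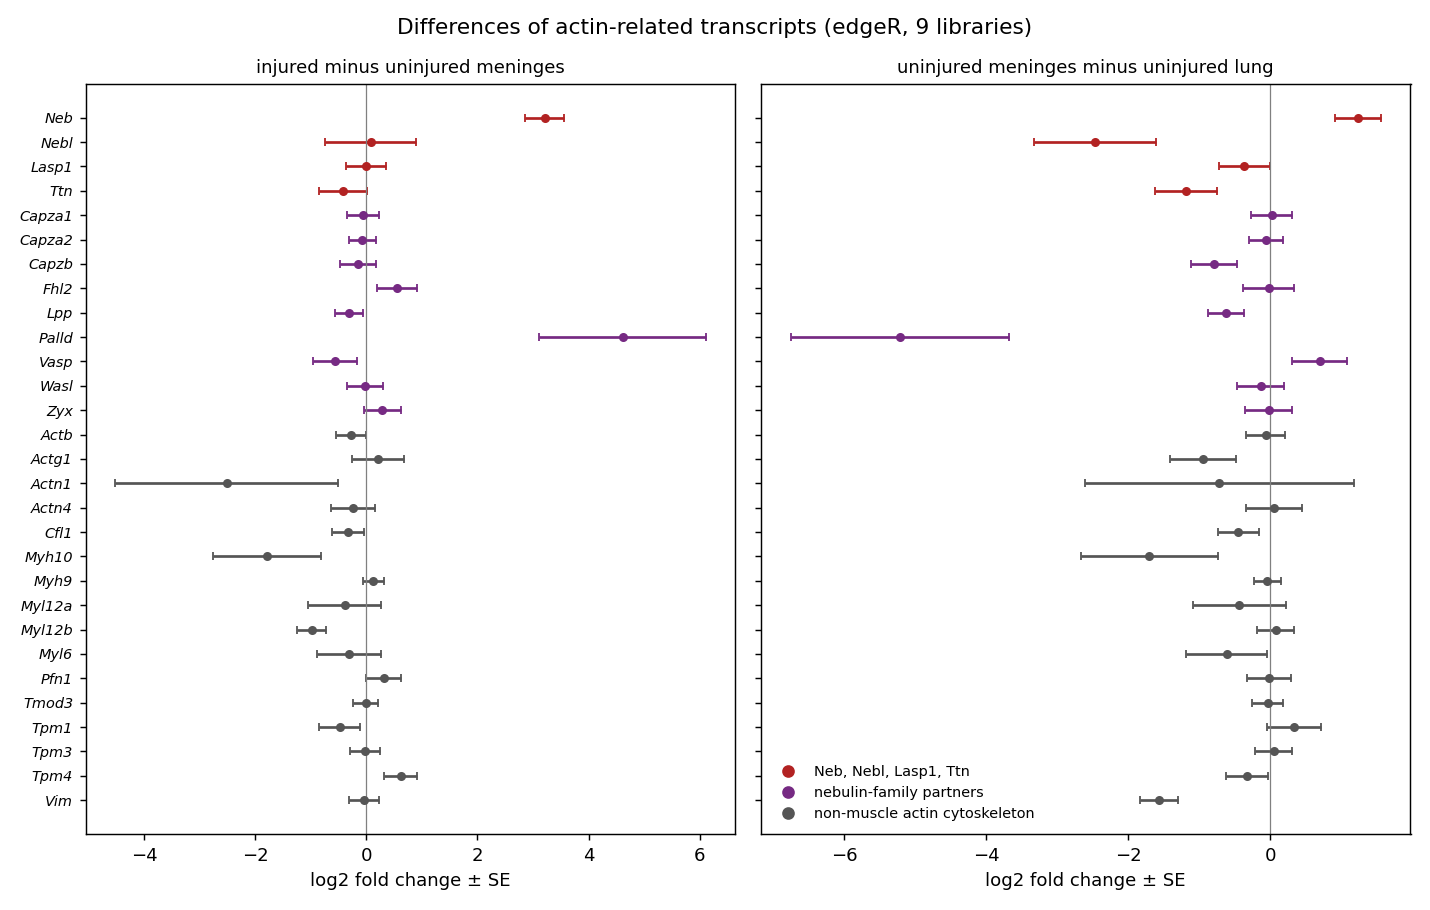
Log2 fold changes with their SE from edgeR for Neb, Nebl, Lasp1 and Ttn, for 9 partners of the nebulin family and for 16 genes of the non-muscle actin cytoskeleton, injured minus uninjured meninges in the left panel and uninjured meninges minus uninjured lung in the right panel. Neb lies at 3.21 in the left panel, and Palld, with a wide SE, is the 1 other gene far to the right.

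Reads of Neb's neighbours were examined because counts of adjoining or overlapping genes can mix. In the GRCm38 annotation the nearest protein-coding genes are Arl5a and Cacnb4 on one side and Rif1 and Tnfaip6 on the other. An antisense gene, Gm13522, a processed pseudogene on the strand of Neb, Gm13521, and a microRNA gene, Gm22095, overlap Neb. Gm13521 had 0 counts in all injured libraries, 0, 3 and 0 in uninjured meninges and 0, 6 and 0 in lung. Gm22095 had no row. Gm13522 had 64, 0 and 6 counts in injured meninges, 0 in all uninjured meningeal libraries and 15, 0 and 0 in lung, far fewer than Neb. Arl5a, a small GTPase gene on the strand of Neb, had 271, 252 and 340.4 CPM in injured meninges, 169, 149.5 and 147 CPM in uninjured meninges and 136, 133 and 117 CPM in lung. All injured libraries of Arl5a lay above all others, and its log2 difference with injury was 0.89 ± 0.23 (SE, edgeR adjusted p = 0.20, DESeq2 adjusted p = 0.00095). Rif1, a DNA repair and replication timing factor, lies on the opposite strand. It had 212, 332 and 294 CPM in injured meninges, 247, 191 and 287 CPM in uninjured meninges and 139, 177 and 143 CPM in lung. Its log2 difference with injury was 0.21 ± 0.24 (SE, edgeR adjusted p = 0.87). Between uninjured meninges and lung it was 0.66 ± 0.25 (edgeR adjusted p = 0.40). Those groups did not overlap, as for 18.2% of all genes tested. Cacnb4 had 3.82, 1.27 and 1.38 CPM in injured and 0, 0.77 and 0 CPM in uninjured meninges (edgeR adjusted p = 0.76), and Tnfaip6 was at 0 in all meningeal libraries. Whether reads of Arl5a entered the counts of Neb was not tested.

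The genes whose profile over the 9 libraries was most like that of Neb were ranked by Pearson correlation of log2(CPM + 1). The ranking covered 7219 genes that passed the filter and averaged 10 CPM or more. Predicted genes, small RNAs, ribosomal protein genes and mitochondrially encoded genes were left out, as was every symbol that begins with Rn or Mir. The leading 8 were Tab2 (r = 0.95), Ivns1abp (0.94), Vps54 (0.93), Nek3 (0.93), Rbbp6 (0.93), Tsen15 (0.93), Sde2 (0.93) and Mdc1 (0.93). The points share 3 groups, so these values describe the order of the groups as much as that of single libraries, and they carry no p. Ivns1abp, a kelch-type protein that binds actin, had 1100.03, 1418 and 1634 CPM in injured meninges, 538, 537 and 749 CPM in uninjured meninges and 551, 664 and 613 CPM in lung. Tab2, an adaptor of the kinase TAK1, had 454, 506 and 569 CPM in injured meninges, 338, 414 and 421 CPM in uninjured meninges and 308, 368 and 354 CPM in lung. In each of the 8 genes all injured libraries lay above all uninjured meningeal libraries, with log2 differences of 0.38 to 1.63, against 3.21 for Neb. Because the 8 were picked by likeness to Neb, this separation largely follows from the choice, and nothing is read from it. Over all genes tested, 12.1% had no overlap between injured and uninjured meninges, and 18.2% had none between uninjured meninges and lung. The step from lung to uninjured meninges was less alike: uninjured meninges and lung overlapped for Tab2, Ivns1abp, Nek3 and Tsen15, and the log2 difference of Ivns1abp between them was 0.00 ± 0.20 (SE). Among the members tested, Nebl (r = -0.46), Lasp1 (-0.47), Des (-0.66) and Ttn (-0.73) had negative correlations with Neb over the same libraries.

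**Figure D5:**
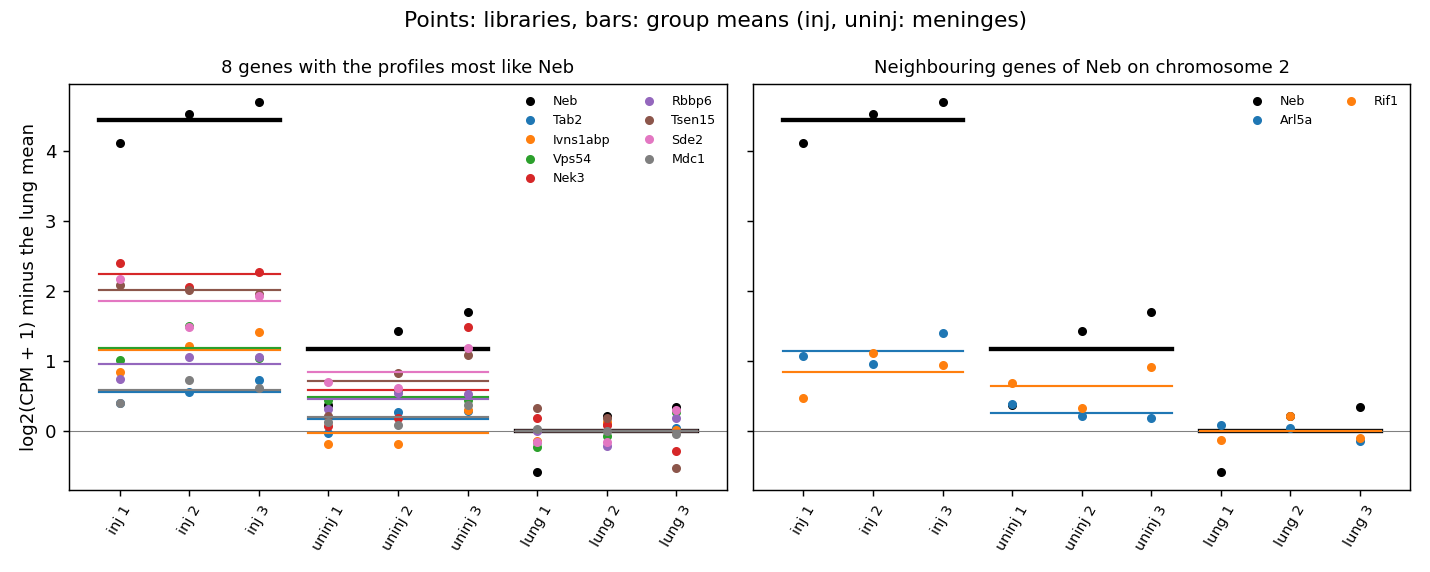
Log2(CPM + 1) minus the lung mean in each of the 9 libraries (points) with group means (bars), for Neb with the 8 genes of most similar profile in the left panel and for Neb with its neighbours Arl5a and Rif1 in the right panel. In injured meninges Neb lies above each of the other genes drawn.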

How the data were processed

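Per the labels, RNA of the 9 libraries was isolated by PicoPure and amplified by the Ovation V2 system. The authors deposited raw counts, 1 column per library. The submitters' processing notes list FastQC, STAR, HTSeq and build mm9. Versions, strand setting and treatment of multiply mapped reads are not given in the sources used here. Symbols came from the table for 15969 genes and from a reference matched on identifier for 7407. Exon lengths, neighbours and transcript sequences came from GENCODE M21 (GRCm38), which is not the authors' build, so no coordinates are given.

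The test was edgeR's robust quasi-likelihood F test (version 4.0.16, R 4.3.3), with filterByExpr by group, 15117 genes, trimmed mean of M values, 1 fit over all 9 libraries, Benjamini-Hochberg over all genes and calls under 0.05. The SE was taken from the log2 difference and its F value. The procedure was tested on simulated counts. Alternatives were DESeq2 1.42.0, other scalings, no filter, only the compared libraries, a replicate block and leaving out each library. No 2 libraries agreed within sampling noise (lowest chi-square per degree of freedom 62.8). The 9 members and the 12 gene lists were chosen with earlier results of these data known. Named were all members and, per list, each gene called, the most abundant one and the one with the smallest p per comparison. Also named were the 8 genes most correlated with Neb, and its 2 nearest protein-coding neighbours on each side. Wasl, Mef2d, Myh11, Cspg4, Myog, Pax3, Mybph, Atp2a1, Actn3, Ldb3, Myh7, Gm13521 and Gm13522 were chosen after their values were seen.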

Additional observations from a re-analysis of the deposited data

How the results depend on the processing

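The log2 difference of Neb stayed between 2.91 and 3.49 for injured against uninjured meninges, and between 0.96 and 1.54 for uninjured meninges against lung, over 15 alternatives. Of 149 such values for the 5 members tested, 145 moved by less than the spread between libraries or stayed on their side of the threshold. The others were 3 values of Des with injury and that of Ttn between meninges and lung with DESeq2. Among the members other than Neb, Ttn was the 1 called between meninges and lung under any alternative. Leaving out single libraries called 0 of them. Neb carries no test and is not covered by these counts of calls. Counts of all genes called were less stable. With injury edgeR called 29, against 435 (213 higher) by DESeq2, 78 without the filter, 12 with only the 6 libraries compared and 18 to 27 without single libraries, the lowest being 18 without injured meninges 2 and 19 without uninjured meninges 2. Between meninges and lung edgeR called 96, against 535 by DESeq2, 193 without the filter, 226 with 6 libraries and 51 to 196 without single libraries, among them 51 without lung 3, 53 without uninjured meninges 2 and 196 without injured meninges 2. Of the list genes, 1 was called with injury, against 6 by DESeq2, 2 without the filter, 0 with 6 libraries and 0 to 2 without single libraries. Between the tissues 1 was called, against 3 by DESeq2, 3 without the filter, 2 with 6 libraries, 2 with size factors by relative log expression and 0 to 3 without single libraries. The cause of these shifts was not tested. Same-numbered libraries correlated at -0.04 to 0.10 in their deviations from the group means over all genes tested. Neb itself rose from library 1 to library 3 in each group. With the replicate block its SE was 0.22 with injury and 0.20 between meninges and lung, against 0.34 and 0.32 without it. Whether the numbers mark pairs or a shared batch was not tested. With the replicate block 43 and 136 genes were called, and 2 list genes in each comparison, Rora being added to Thy1 and to Vim. Nrap, Acta1 and Ckm had too few counts to be tested, and Des, which was tested between meninges and lung, had an SE of 2.15 on the log2 scale.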
